A study of Arabidopsis thaliana with 2 samples.

Results

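The genes for the linker histone H1 and for the core histones H2B, H3 and H4 were followed in RNA-seq of Arabidopsis thaliana seedlings, as 34 genes listed by their identifiers out of 33557 genes in the files. They comprise 8 genes for H4, 5 for the replicative H3.1, 3 for the replacement variant H3.3, the centromeric CENH3, 3 H3-like genes, 11 for H2B and 3 for H1. Both libraries belong to a single group, arp6-1 mutants in the Col0 background, labelled replicate 1 and replicate 2. The whole seedlings were 10 days old, had grown at 17 °C in long days, and were taken 15 min into a shift begun at ZT1 (1 h after lights on), in the arm held at 17 °C. The arp6-1 mutation hits ARP6, a subunit of the SWR1 complex that places the variant H2A.Z into nucleosomes, and every seedling analysed here carries it. ARP6 itself had 7 counts in replicate 1 and 7 in replicate 2. No wild type and no other temperature was analysed here, so the comparison is between the libraries of this group. The labels do not say whether the replicates were separate cultures, and they name a stranded and an unstranded kit and 2 sequencing centres without saying which library came from which, so that a kit or centre and a library cannot be told apart. Gene counts totalled 20249142 for replicate 1 and 12410991 for replicate 2, and chloroplast genes took 0.777% of them in replicate 1 and 0.179% in replicate 2.

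Histones H2A, H2B, H3 and H4 form the protein core around which DNA is wrapped, and H1 binds the DNA that enters and leaves it. Plant cells make most core histone mRNA in S phase, when new DNA has to be packaged; H3.1 is the form laid down behind the replication fork, while H3.3 is put in throughout the cell cycle, largely over transcribed genes. CENH3 replaces H3 at centromeres. Unlike animal replicative histone mRNAs, those of plants carry a poly(A) tail, so that a poly(A)-based library can hold them.

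A short set of promoters shows the octamer and hexamer elements that some of these genes carry, and one window without either. Each run below is the 250 bases before the annotated transcript start, 5′ to 3′ on the gene's strand, read from the RefSeq genome of build TAIR10.1. Capitals mark an octamer (CGCGGATC) or a hexamer (ACGTCA), elements known from plant histone promoters, or their reverse complements. AT5G59690 is the most abundant H4 gene, HTR2 and HTR1 lead the H3.1 genes, HTB2 is an abundant H2B gene, HTR8 encodes H3.3, and H1.3 had the largest difference of the tested members.
AT5G59690 (H4), chr5:24051224-24051473, plus strand: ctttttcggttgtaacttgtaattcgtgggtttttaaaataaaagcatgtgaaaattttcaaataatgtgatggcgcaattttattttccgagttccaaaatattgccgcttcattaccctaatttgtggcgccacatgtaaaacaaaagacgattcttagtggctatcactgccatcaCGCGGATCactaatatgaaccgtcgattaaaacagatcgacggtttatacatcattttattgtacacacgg
HTR2, chr1:2972335-2972584, minus strand: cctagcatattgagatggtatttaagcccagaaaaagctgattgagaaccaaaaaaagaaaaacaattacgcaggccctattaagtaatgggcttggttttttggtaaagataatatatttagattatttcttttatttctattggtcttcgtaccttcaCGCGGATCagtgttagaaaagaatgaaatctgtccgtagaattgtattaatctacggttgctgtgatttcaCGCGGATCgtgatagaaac
HTR1, chr5:26120582-26120831, minus strand: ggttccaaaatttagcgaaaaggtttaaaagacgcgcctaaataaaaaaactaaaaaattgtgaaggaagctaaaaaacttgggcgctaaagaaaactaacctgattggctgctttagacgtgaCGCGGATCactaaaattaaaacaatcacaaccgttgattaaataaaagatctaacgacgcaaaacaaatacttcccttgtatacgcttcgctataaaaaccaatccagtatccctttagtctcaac
HTB2, chr5:7652715-7652964, minus strand: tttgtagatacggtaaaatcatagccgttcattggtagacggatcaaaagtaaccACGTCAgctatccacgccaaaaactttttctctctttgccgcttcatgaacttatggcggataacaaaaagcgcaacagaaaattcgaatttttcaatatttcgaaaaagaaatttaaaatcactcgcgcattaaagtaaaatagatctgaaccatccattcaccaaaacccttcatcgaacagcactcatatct
HTR8, chr5:3473571-3473820, minus strand: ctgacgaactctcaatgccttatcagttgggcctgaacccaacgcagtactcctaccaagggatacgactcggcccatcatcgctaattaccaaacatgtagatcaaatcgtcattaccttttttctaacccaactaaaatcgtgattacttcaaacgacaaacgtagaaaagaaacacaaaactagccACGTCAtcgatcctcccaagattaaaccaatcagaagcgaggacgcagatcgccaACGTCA
H1.3, chr2:7845673-7845922, plus strand: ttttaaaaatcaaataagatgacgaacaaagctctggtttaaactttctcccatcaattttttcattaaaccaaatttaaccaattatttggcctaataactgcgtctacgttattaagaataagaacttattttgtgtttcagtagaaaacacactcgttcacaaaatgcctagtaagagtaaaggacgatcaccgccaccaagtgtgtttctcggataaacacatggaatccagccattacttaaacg

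The octamer was rare among the genome's promoters and was present upstream of 7 members. On either strand it lay in 37 of 27443 promoters of protein-coding genes of the same length (0.135%), and 7 of these 37 belonged to the 34 histone genes and 3 to H2A genes. It was found upstream of 2 of 8 H4 genes (AT1G07660 and AT5G59690), 3 of 5 H3.1 genes (HTR2, HTR9 and HTR1), HTR5 for H3.3 and H1.1, and of 0 of 11 H2B genes. The H4 and H3.1 genes carried it in the forward direction, with 6 matches in 5 genes, starting between 126 and 19 bases before the transcript start. HTR5 and H1.1 carried it reversed, starting 17 and 28 bases before the start. The hexamer was found upstream of 12 of 34 members, against 7.69% of all promoters, and most of these were H2B genes: 8 of 11 H2B genes held it, HTB4, HTB7 and HTB8 being the exceptions. Outside H2B it lay upstream of HTR3, HTR9, HTR8 and HTR10. An E2F-type element (TTTCCCGC), known from replication genes, was found upstream of 0 of 34 members and of 6 of 19 DNA replication genes, against 0.619% of all promoters. In a search added after seeing the data, with the spellings TTTCGCGC, TTTGCCGC and TTTGGCGC included, 3 members (AT3G45930, AT3G46320 and HTB2) and 8 of 19 replication genes held at least 1 of them, against 1.41% of all promoters. The abscisic acid element ACGTGTC lay upstream of 4 H2B genes, 3 times overlapping the hexamer, against 3.68% of all promoters, and not in the window of H1.3. In 16 of 34 promoters neither octamer nor hexamer was present. Positions and absences hold for these windows only, which depend on the annotated start. For HTB4 the window ended at 24126876, whereas the deposited gene model starts at 24127128. Among minus-strand genes, the window of AT3G53730 began at 19913516 and that of HTR5 at 18558946. Their deposited models end at 19913033 and 18558743. The HTR4 window, 18557107 to 18557356, ran into the deposited span of HTR5, which starts at 18557187. These matches describe letters in a window; they do not show that a factor binds there.

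**Figure D1:**
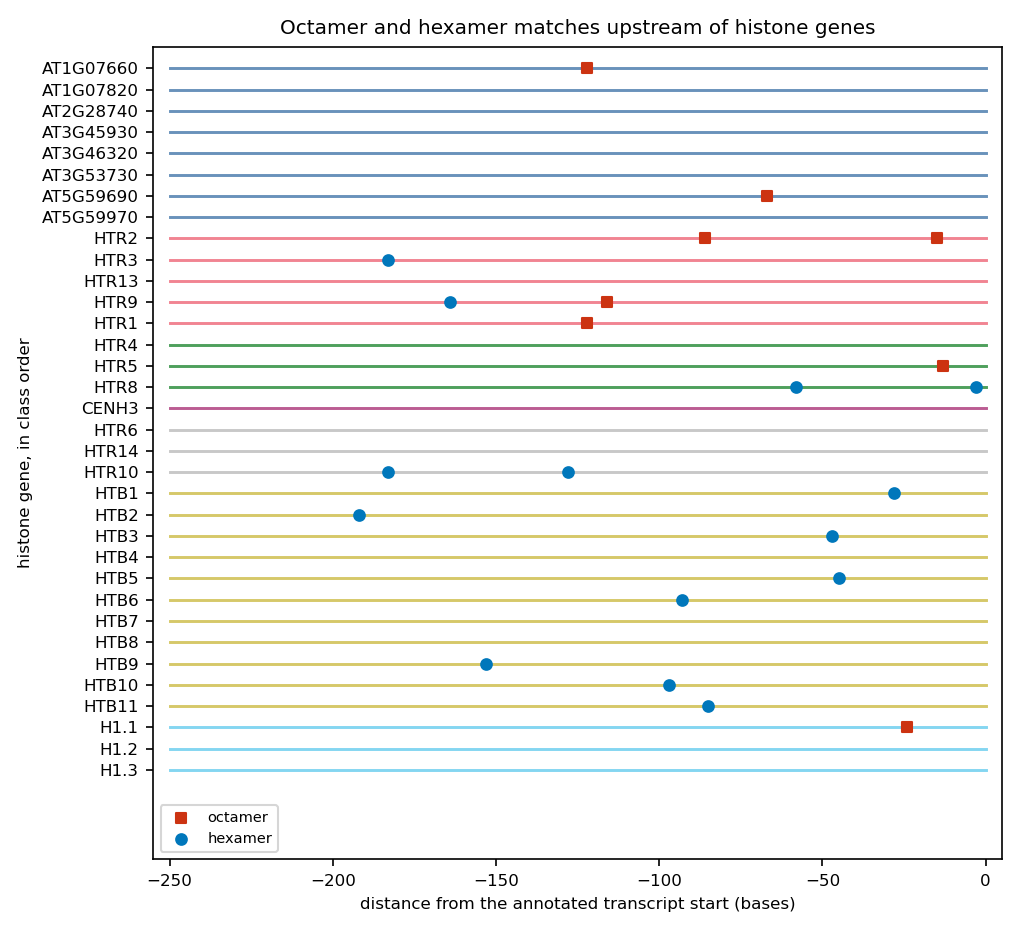
Positions of octamer (squares) and hexamer (circles) matches, drawn at their centres, in the 250 bases before the annotated start of each of the 34 histone genes, in bases from the start, with lines coloured by histone class. Octamers sit on 2 of 8 H4 genes, 3 of 5 H3.1 genes, HTR5 and H1.1. Hexamers sit on 8 of the 11 H2B genes and on HTR3, HTR9, HTR8 and HTR10.

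Many of the members lie close to one another. Of the 8 H4 genes, 5 lay within 25000 bases of an H2B gene, a distance chosen after the positions were seen: AT2G28740 is 1809 bases from HTB3, AT1G07820 7507 from HTB1, AT3G45930 13410 from HTB9, AT5G59970 18239 from HTB4 and AT3G53730 22719 from HTB6. The H3.3 genes HTR4 and HTR5 are 214 bases apart on chromosome 4, and the H3.1 genes HTR13 and HTR9 738 bases apart on chromosome 5. Coordinates of genes are those of the files, in TAIR10, counted from 1.

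Some of the histone genes are near copies of each other, which bears on how reads can be told apart. All 8 H4 coding sequences were 312 bases long, and pairs of them shared between 78.8% and 98.1% of bases. The closest pair, AT1G07660 and AT1G07820, differed at 6 bases, and the first 150 bases of both are shown in TAIR10.1 with the 2 differing bases of that stretch in capitals.
AT1G07660, chr1:2369212-2369361, plus strand: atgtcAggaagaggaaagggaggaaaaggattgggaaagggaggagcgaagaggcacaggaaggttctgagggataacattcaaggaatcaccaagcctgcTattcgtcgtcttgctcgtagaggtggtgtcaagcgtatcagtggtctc
AT1G07820, chr1:2421597-2421746, minus strand: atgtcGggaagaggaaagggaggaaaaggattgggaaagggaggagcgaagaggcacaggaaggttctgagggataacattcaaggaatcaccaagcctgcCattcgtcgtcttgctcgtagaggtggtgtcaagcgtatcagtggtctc

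Of the 34 genes, 25 had no stretch of 100 bases (the read length) in their longest annotated transcript that also occurs in a transcript of another gene. The H4 pair shown above shared 38 such stretches, and the pair AT3G45930 and AT3G46320 shared 66. Of the other members with shared stretches, 68.8% of those of HTR3 were unique, 76.1% for HTB9, 63.7% for H1.1 and 95.04% for HTR14. For HTB10 0% were unique, since all of them also occur in a transcript of HTA12. In the files' own gene models, spans of HTR3, HTB9 and H1.1 overlapped another gene. The counts of these genes are therefore uncertain. For HTR3 the deposited TPM, a transcript level corrected for length and library size, was 3.51 times in replicate 1 and 3.12 times in replicate 2 the TPM computed from its counts.

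Histone genes ranged from among the most abundant transcripts to barely detected ones. Levels are the authors' TPM, as mean ± SD of the 2 libraries. By these values HTR4 stood highest at 464 ± 45.3 TPM, above 99.2% of all genes in replicate 1 and 99.1% in replicate 2. This rank depends on the unit. In TPM computed from counts HTR4 had 285 in replicate 1, below AT5G59690 at 293. In replicate 2 it had 241 by that measure, below HTR5 at 254. The sperm histone gene HTR10 was lowest, with 1 count in replicate 1 and 0 in replicate 2, and the H2B variant gene HTB8, known from seeds, had 1 and 2 counts. A count of 0 in replicate 2 allows up to 0.242 CPM (counts scaled to a library of fixed size). Markers of pollen and sperm were at or near 0 as well, with 4 of 6 genes at 0 counts in both libraries, among them the pollen regulator DUO1 and VGD1, and a summed level of 1.36 TPM in replicate 1 and 0.803 TPM in replicate 2. The highest of these 6 by TPM were SWEET5 with 4 counts in replicate 1 and 5 in replicate 2, GEX2 with 0 counts in both, listed at 0.603 TPM in replicate 1, and HAP2 with 19 and 2 counts. The order of the 34 levels was much alike in the libraries (Spearman's rho 0.882 across genes, which are not independent replicates).

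**Figure D2:**
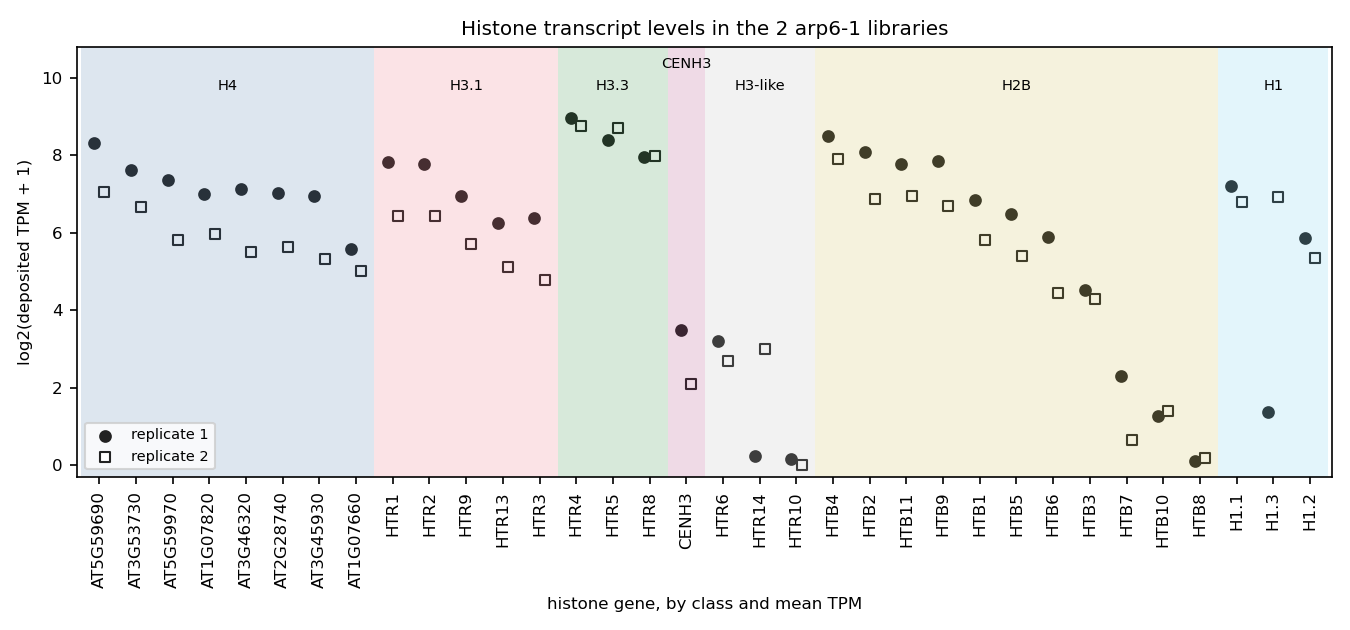
Level of each of the 34 histone genes on the log2(deposited TPM + 1) scale in replicate 1 (filled circles) and replicate 2 (open squares), grouped by class and ordered by mean. H4, H3.1 and most H2B genes were higher in replicate 1, the 3 H3.3 genes lay close together, and H1.3 and HTR14 were lower in replicate 1.

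Differences were tested on the counts as replicate 1 over replicate 2, with a two-sided exact binomial test adjusted over 19519 genes that had at least 10 counts in both libraries. This test covers counting error alone and compares these libraries, not conditions, and 64.2% of all tested genes passed it, 32.1% in each direction. Of the 34 members 30 were tested, and 24 were higher and 2 lower in replicate 1, with a median log2 ratio of 1.05 beside 0.00473 over all tested genes. A stricter test used the spread of 12 reference genes between the libraries (coefficient of variation 14.9%) in edgeR's exact test; it called 19 members higher and 1 lower, against 9.12% and 9.91% of all genes. With the spread of all genes (38.8%), 0 members were called higher and 1, H1.3, lower, against 0.0666% and 0.799% of all genes, and at an unadjusted p under 0.05 the counts were also 0 and 1. HTR14, HTB7, HTB8 and HTR10 missed the count minimum. In whole seedlings, a lower share of cells that make a transcript and less of it per cell cannot be told apart.

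**Figure D3:**
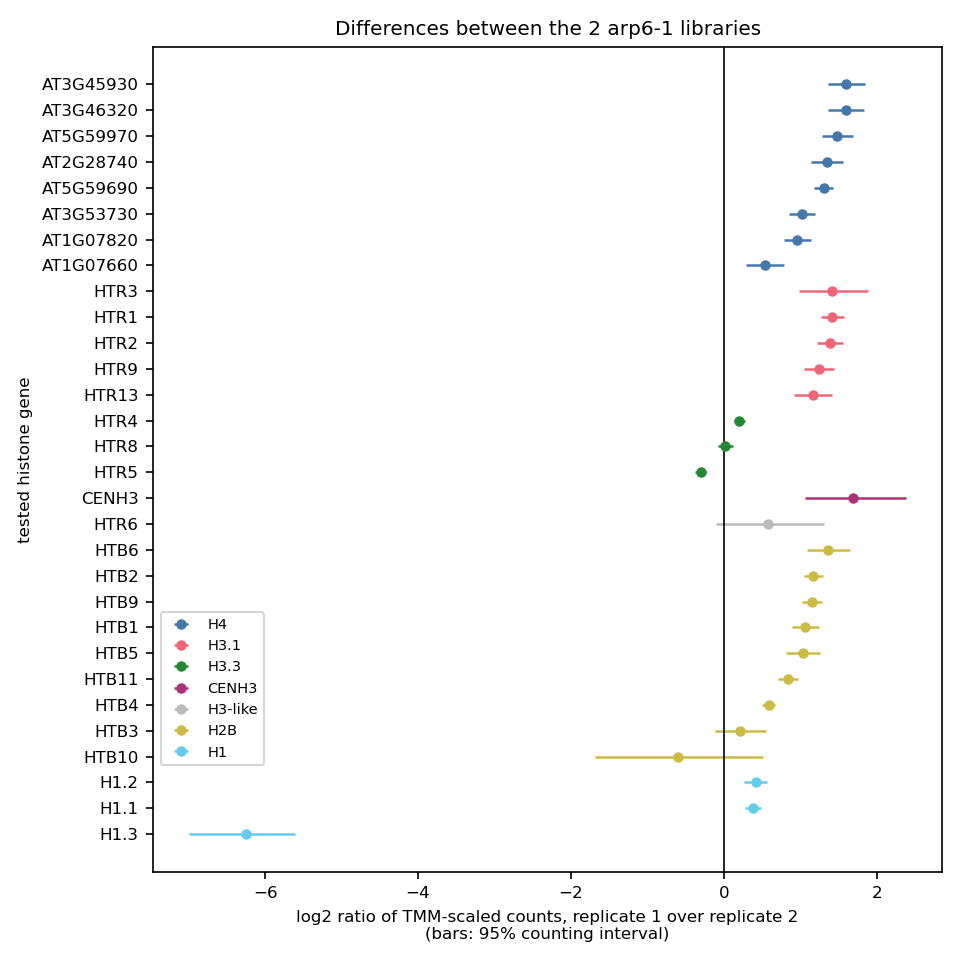
Log2 ratio of scaled counts, replicate 1 over replicate 2, for the 30 tested histone genes, with 95% exact counting intervals. The H4 and H3.1 genes all lie to the right of 0, the H3.3 genes straddle it, and H1.3 lies at -6.26.

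Transcripts of all 8 H4 genes were higher in replicate 1 by the binomial test, beside 32.1% of all tested genes. With the reference spread 7 of 8 were higher, beside 9.12%, and with the spread of all genes 0. Summed over the class, H4 made up 1244 TPM in replicate 1 and 514 TPM in replicate 2. AT5G59690 on chromosome 5 was the main H4 transcript, with 321 TPM in replicate 1 and 132 TPM in replicate 2, or 2618 and 618 counts. It was 2.47-fold higher in replicate 1 (95% counting interval 2.26 to 2.70) and made up 25.8% of H4 TPM in replicate 1 and 25.7% in replicate 2. In deposited TPM AT3G53730 followed at 198 and 101 TPM. Its TPM computed from counts was 95.3 and 45.8, below AT1G07820 at 104 and 51.7, so its place depends on the unit. AT3G45930 and AT3G46320, the pair that shares stretches, differed most, both 3.02-fold, with 122 and 39.0 TPM and with 138 and 44.8 TPM. AT5G59970 had 162.5 TPM in replicate 1 and 55.3 TPM in replicate 2, AT2G28740 130 and 48.9 TPM, and AT1G07820 126 and 62.1 TPM. The mean levels of AT5G59970, AT1G07820, AT3G46320 and AT2G28740 followed each other without a fixed order in the libraries. The lowest, AT1G07660, had 47.1 and 31.3 TPM; it was 1.45-fold higher in replicate 1 and missed the threshold with the reference spread (adjusted p = 0.278, edgeR exact test). Its near copy AT1G07820 was thus the more abundant of the pair in both libraries.

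The replicative H3.1 genes behaved alike. All 5 were higher in replicate 1 by the binomial test and with the reference spread, beside 32.1% and 9.12% of all tested genes. With the spread of all genes 0 were called. The log2 ratios lay between 1.16 and 1.42. Their summed level was 726 TPM in replicate 1 and 283 TPM in replicate 2. HTR1 had 228 TPM in replicate 1 and 85.9 TPM in replicate 2, a 2.67-fold difference in counts (interval 2.41 to 2.96). HTR2 had 218 and 85.0 TPM and differed by 2.62-fold (2.34 to 2.95). HTR9 stood at 122 and 51.1 TPM and HTR13, its neighbour, at 75.8 and 34.02 TPM. For HTR3, whose counts are uncertain, the deposited levels were 82.2 and 26.5 TPM. The composition of the H3.1 pool hardly moved: HTR1 gave 31.4% of it in replicate 1 and 30.4% in replicate 2, and HTR2 30.0% and 30.1%.

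Among the H3.3 genes 1 was higher and 1 lower in replicate 1 by the binomial test, beside 32.1% of all tested genes in each direction. Their summed level was 1082 TPM in replicate 1 and 1101 TPM in replicate 2, or 1092 ± 13.6 TPM. HTR4 had 496 TPM in replicate 1 and 432 TPM in replicate 2 and was 1.15-fold higher in replicate 1 (interval 1.09 to 1.21). HTR5 had 336 and 418 TPM and was 1.23-fold lower in replicate 1 (1.18 to 1.297). HTR8 had 249.98 and 251.54 TPM, a ratio of 1.01 (0.947 to 1.09) that missed the threshold (adjusted p = 0.760, exact binomial test). With the reference spread 0 of 3 were called, and their median log2 ratio was 0.02, beside 1.39 for H3.1. The intervals of the 3 H3.3 genes and those of the 5 H3.1 genes did not overlap. H3.3 genes gave 59.8% of H3.1 and H3.3 TPM in replicate 1 and 79.6% in replicate 2 (69.7 ± 13.96, SD, n = 2). In counts the share was 65.1% (exact 95% interval 64.4 to 65.8) and 82.9% (82.1 to 83.8).

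Set against H4, the proportions of the transcripts shifted. H3.1 was 0.583 times H4 in summed TPM in replicate 1 and 0.549 times in replicate 2, and H2B 1.103 and 1.405 times. H3.3 was 0.869 times H4 in replicate 1 and 2.14 times in replicate 2.

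CENH3, the H3 variant that marks centromeres, was a low transcript with a large ratio. It had 133 counts in replicate 1 and 24 in replicate 2, or 10.26 and 3.27 TPM, and was 3.23-fold higher in replicate 1 (interval 2.08 to 5.22; adjusted p = 0.00115 in edgeR's exact test with the reference spread). The H3-like genes were low throughout. HTR6 had 64 and 25 counts, or 8.20 and 5.44 TPM, and missed the threshold (adjusted p = 0.139, exact binomial test). HTR14, whose coding sequence was 93.4% identical to that of HTR6, went the other way, with 1 count in replicate 1 and 29 in replicate 2 (0.178 and 7.05 TPM). Its ratio was 49.7-fold lower in replicate 1, with a counting interval of 8.24 to 2030, and it passed the exact binomial test when no minimum was set (adjusted p = 2.53e-11, in a test that called 54.0% of all genes).

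**Figure D4:**
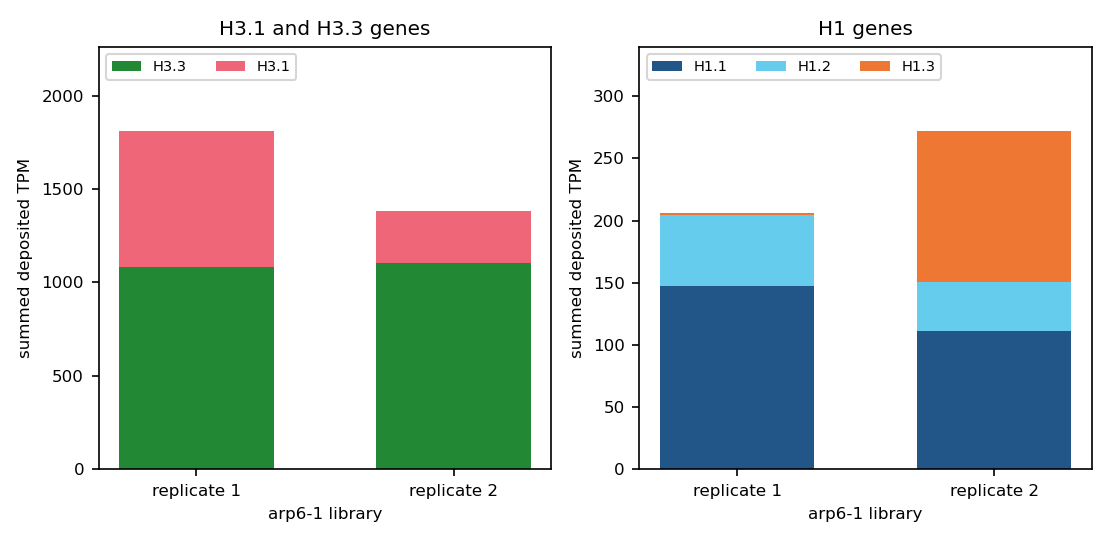
Stacked bars of summed deposited TPM for the H3.1 and H3.3 genes (left panel) and the 3 H1 genes (right panel), with replicate 1 at the left of each. H3.3 is level at 1082 and 1101 TPM, H3.1 differs at 726 and 283 TPM, and H1.3 is 1.59 TPM in replicate 1 and 121 TPM in replicate 2.

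Among the H2B genes, 7 of 9 tested were higher in replicate 1 by the binomial test, beside 32.1% of all tested genes. With the reference spread 6 were higher, beside 9.12%, and with the spread of all genes 0. By any of these tests 0 were lower. The class summed to 1373 TPM in replicate 1 and 723 TPM in replicate 2. HTB4 was the most abundant, with 362 TPM in replicate 1 and 240.3 TPM in replicate 2, and the least different of the 7, with a log2 ratio of 0.58 (interval 0.50 to 0.67; adjusted p = 0.187 in edgeR's exact test with the reference spread). HTB2 had 271 and 117 TPM and was 2.25-fold higher (2.07 to 2.45). HTB9 had 231 and 103 TPM, HTB11 219 and 124 TPM, HTB1 113 and 55.8 TPM, and HTB5 89.2 and 41.5 TPM. HTB6, at 58.8 and 21.0 TPM, had the largest ratio of the tested H2B genes, 2.58-fold (2.12 to 3.15). HTB3 stood at 22.2 and 18.4 TPM, a ratio of 1.16 (0.922 to 1.47) that missed the threshold. HTB10, which shares its stretches with HTA12, had 17 and 15 counts and also missed it. HTB7 was below the minimum with 34 counts in replicate 1 and 3 in replicate 2, a ratio of 6.61 (2.08 to 33.6; adjusted p = 0.000300 in the exact binomial test without a minimum). The order of HTB2, HTB11 and HTB9 by level was not the same in both libraries.

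The linker histone genes split. H1.1 and H1.2 were 1.299-fold and 1.33-fold higher in replicate 1, and H1.3, a smaller variant known to be induced by drought and abscisic acid, was far lower. H1.1 had 147 TPM in replicate 1 and 111 TPM in replicate 2 (interval of the fold 1.21 to 1.396), and H1.2 had 57.4 and 39.9 TPM (1.205 to 1.48). Neither passed with the reference spread. H1.3 (AT2G18050, chromosome 2, 7845923 to 7846884) had 19 counts in replicate 1 and 847 in replicate 2, or 1.59 and 121 TPM. This is 76.4-fold lower in replicate 1 (48.6 to 128), and it was the single member that passed edgeR's exact test with the spread of all genes (adjusted p = 2.61e-06). Of the 19519 tested genes, 15 had a lower log2 ratio. H1.3 gave 0.770% of H1 TPM in replicate 1 and 44.5% in replicate 2, and 0.519% (exact 95% interval 0.313 to 0.810) and 34.3% (32.5 to 36.2) of H1 counts. Without H1.1, whose counts are uncertain, its share of TPM was 2.69% in replicate 1 and 75.2% in replicate 2. The sum of the H1 genes was 206 TPM in replicate 1 and 272 TPM in replicate 2.

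Dehydration-response genes moved with H1.3. All 10 of that list were lower in replicate 1 by the binomial test and with the reference spread, beside 32.1% and 9.91% of all tested genes. The list was chosen with earlier results of these data known, and its median log2 ratio was -5.10. With the spread of all genes 7 of the 10 were called lower, beside 0.799% of all genes. The summed level of the 10 was 836 TPM in replicate 1 and 10068 TPM in replicate 2. KIN2, COR15A and RAB18 were the highest of them, with 302 and 1783 TPM, 45.2 and 1457 TPM, and 2.13 and 1364 TPM. Seed genes, none of which reached the minimum in both libraries, summed to 0.998 TPM in replicate 1 and 39.5 TPM in replicate 2, with EM6 at 5 and 142 counts, EM1 at 6 and 100 counts and OLEO2 at 2 and 40 counts. The storage protein gene CRU3 was at 0 counts in both. The part of these genes' difference in that of H1.3 was not tested.

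Genes of DNA replication and mitosis moved with H4, H3.1, H2B and CENH3. Of all tested genes 32.1% were higher in replicate 1 by the binomial test and 9.12% against the reference spread. The lists set beside the members were chosen with earlier results of these data known. Of 19 replication genes 17 were higher in replicate 1 by the binomial test and 16 against the reference spread. By either test 0 of the 19 were lower, and the median log2 ratio was 1.19. TSO2, a ribonucleotide reductase subunit and the highest of them, had 152 and 148 TPM and missed the threshold, whereas PCNA1, the sliding clamp, had 44.4 and 14.1 TPM and RNR1, the large reductase subunit, 40.7 and 14.5 TPM. All 10 mitotic genes were higher in replicate 1 by these tests, with a median of 1.64; their highest were the cytokinesis syntaxin KNOLLE at 51.7 and 17.2 TPM, CDKB2;1 at 27.2 and 10.5 TPM and AUR1 at 26.4 and 6.47 TPM. Over the 24 H4, H3.1 and H2B genes, 22 were tested and the median was 1.16. Of 13 H2A genes 9 were higher and 0 lower (7 and 0 with the reference spread; median 0.87), and the summed H2A level was 1443 TPM in replicate 1 and 804 TPM in replicate 2. That list was led by HTA10 with 290.1 and 120.0 TPM, HTA9 with 178 and 178 TPM, and HTA6 with 237 and 74.3 TPM. HTA9 is one of the H2A.Z genes, which did not move alike: HTA8 had 31.3 and 8.03 TPM and was 3.66-fold higher in replicate 1, and HTA11 had 94.4 and 25.5 TPM and was 3.75-fold higher, both passing with the reference spread and both named after their values were seen. With the spread of all genes, 0 of the 19 replication genes, 0 of the 10 mitotic genes and 0 of the 13 H2A genes were called.

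Histone chaperones, which escort histones to and from DNA, moved in both directions. By the binomial test 9 of 18 genes were higher in replicate 1 and 4 lower, beside 32.1% of all tested genes in each direction. With the spread of all genes 0 were called, beside 0.866% of all genes, and the median was 0.34. Against the reference spread 2 were higher and 0 lower, beside 9.12% and 9.91% of all genes. The 2 were FAS1 and FAS2 of the CAF-1 complex, which delivers H3.1 with H4 at replication forks; FAS1 had 7.72 and 3.33 TPM and FAS2 7.49 and 3.29 TPM. MSI1, the other CAF-1 subunit, had 39.1 and 36.3 TPM and missed the threshold (adjusted p = 0.331, exact binomial test). Of the genes that serve H3.3, HIRA had 5.68 and 5.19 TPM and also missed it, while UBN1, with 7.47 and 9.25 TPM, and ATRX, with 7.85 and 9.39 TPM, were lower in replicate 1 by the binomial test and not against the reference spread. From the same list, UBN2 had 3.45 and 2.43 TPM and was 1.33-fold higher in replicate 1, and CABIN1 had 4.51 and 4.95 TPM. Neither passed the binomial test or the test with the reference spread. The genes named so far from this list were chosen after their values were seen. NAP1;2, NRP1 and NAP1;1 were the most abundant, with 119 and 83.9 TPM, 121 and 76.3 TPM, and 86.1 and 53.2 TPM. Meristem genes had a median of 0.23 over 5 tested genes. The binomial test called 2 of these higher and 0 lower, beside 32.1% of all tested genes in each direction, and the edgeR tests called 0. CLV1 had 28.9 and 25.1 TPM, KNAT1 19.2 and 18.2 TPM and ANT 18.3 and 10.4 TPM. The 12 reference genes had a median of 0.03, with 4 higher and 4 lower by the binomial test, beside the same 32.1%. The part of the replication and mitotic genes' differences in those of the histone genes was not tested.

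**Figure D5:**
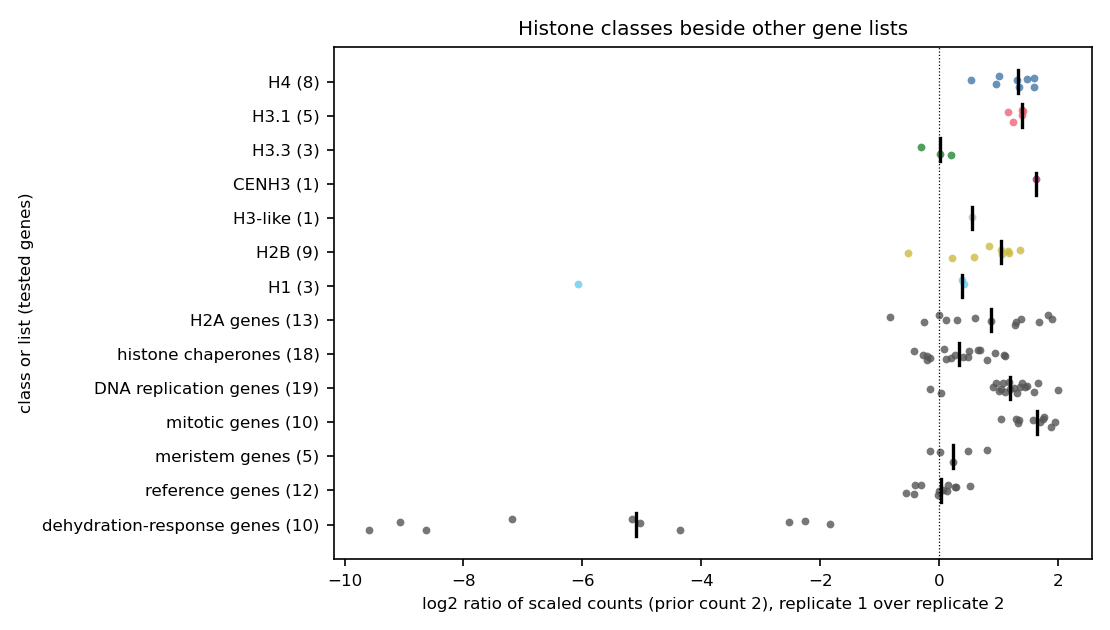
Log2 ratio of scaled counts, replicate 1 over replicate 2, for tested genes of each histone class and of 7 other lists; each point is a gene and each bar the median. H4, H3.1, H2B, replication and mitotic genes have medians from 1.03 to 1.64, H3.3 and reference genes lie near 0, and dehydration-response genes lie at -5.10.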

How the data were processed

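Messenger RNA was measured in 2 libraries of 1 group. Per the submitters' processing notes, the build was TAIR10 and the tools included TopHat, Trimmomatic, Picard and FastQC. What counted the reads, and with which strand setting, is not given in the sources used here. The raw counts are whole numbers deposited by the authors without normalization, per the file headers. The deposited TPM of the authors was taken as the level; it equals FPKM rescaled to a fixed sum. The authors' deposited column is named FPKM per the file headers, with no tool named, and was used for that check only. The members, the other lists and the tests were chosen with earlier results of these data known; the rule names all 34 members and the 3 highest genes of each other list except the reference genes. Genes named besides these are markers at 0 (DUO1, VGD1, CRU3), or were chosen after their values were seen.

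Library sizes were scaled by TMM (edgeR 4.0.16, R 4.3.3; factors 1.02 and 0.976), with DESeq2 1.42.0 size factors as an alternative. Each gene was tested with the exact binomial test (scipy 1.17.1), Benjamini-Hochberg adjusted at 0.05; edgeR's exact test took its dispersion from an intercept-only fit. With 2 libraries of 1 group, the binomial p-values cover counting error alone. The dispersions in edgeR's exact tests came from differences between these same 2 libraries, which may be technical. The 12 reference genes had a smaller dispersion than all tested genes (0.0223 against 0.151). Their spread may therefore understate that of other genes. Medians use a prior count of 2. Intervals are Clopper-Pearson at 95% and, like the limit for a count of 0 (3 counts), cover counting error only. The binomial test was checked on simulated counts that held counting error and planted changes alone. That check does not cover further spread between libraries. Exon lengths, transcripts and promoters came from TAIR10.1, which matched 97.8% of gene IDs, with the same start for 44.7% of these; promoter windows depend on that annotation.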

Additional observations from a re-analysis of the deposited data

How the results depend on the processing

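The alternatives were other scalings, count minimums, prior counts, units and tests, and each library alone; restriction to the 25 members without shared stretches or overlapping spans was added after seeing the data. Of the members, 1 was lower in replicate 1 with at least 50 counts in both libraries, where H1.3 drops out, and 1 by each edgeR exact test. With the spread of all genes 0 were higher. The near-0 median of H3.3 changed sign to -0.0089 and -0.0090 with the deposited TPM and pseudocounts of 1 and 0.1. The median of H1 was -2.83 without H1.1, whose counts are uncertain, its level then 109.9 TPM and the share of H1.3 in it 38.9%, against 22.6% with H1.1. The H3.3 level was 723 TPM when computed from counts and exon lengths; the cause was not tested. The H3-like level was 6.82 TPM over genes with at least 10 counts and 6.88 TPM without HTR14. In TPM computed from counts and exon lengths, H3.3 gave 64.0% of H3.1 and H3.3 as the mean of the libraries. In deposited TPM it gave between 59.8% and 79.6% with either library alone. Over all genes the calls numbered 6262 higher and 6268 lower in replicate 1 by the binomial test, 1780 and 1934 with the reference spread, and 13 and 156 with the spread of all genes. Depth limits HTR14, HTB7, HTB8, HTB10 and HTR10. No paired analysis was possible because the labels give 1 group.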
